A study of Mus musculus with 5 samples.

Results

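The 48 genes described here carry the names of nuclear-encoded subunits of respiratory complexes II to V and of cytochrome c in the mouse. They were taken from the 18307 genes of the RefSeq table by symbol: Sdha to Sdhd, every symbol that begins with Uqcr, Atp5 or Cox4 to Cox8, and Cyc1 and Cycs, without pseudogene entries. By role they are 4 genes of complex II, 9 of complex III, Cycs, 17 of complex IV and 15 of complex V. The other 2, Atp5s and Atp5sl, carry the Atp5 name but are no subunits of the enzyme. RNA was sequenced from embryonic heart ventricles of outbred CD-1 mice at embryonic day 10.5. In the caffeine group (3 libraries) the dams received 20 mg/kg of caffeine daily from day 6.5 to day 9.5, and in the vehicle group (2 libraries) they received 0.9% NaCl on the same days. Each library came from a pool of ventricles of embryos that shared dams, so a library is an average over embryos. In such bulk RNA, fewer cells of a type and less RNA per cell cannot be told apart.

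The respiratory chain sits in the inner mitochondrial membrane and passes electrons from fuel oxidation to oxygen. Complex II, succinate dehydrogenase, is also an enzyme of the citric acid cycle and feeds electrons to ubiquinone. Complex III hands them to cytochrome c, complex IV reduces oxygen, and complex V, the ATP synthase, uses the proton gradient to make ATP. Several complex IV subunits exist in a ubiquitous form and a form typical of heart and skeletal muscle, and the muscle forms become more abundant as the heart matures.

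The deposited table gave estimated counts, which can be fractional. They summed to between 21713372 and 25048122 per library after rounding, and 47 of the 48 genes passed the filter on low counts. Cox7b2 had 5, 0 and 2 counts in the caffeine libraries and 3 and 2 in the vehicle libraries and was not tested. Levels below are in CPM, the usual unit of counts relative to the library's total, scaled by the TMM method, and fold changes are log2 of caffeine over vehicle from edgeR's quasi-likelihood test with Benjamini-Hochberg adjustment over 13829 genes. All 9 cardiomyocyte and all 5 ventricular markers examined were detected in every library. The summed cardiomyocyte markers stood at 29670, 30730 and 31310 CPM in the caffeine libraries, against 37070 and 34550 CPM in the vehicle libraries, and the erythroid markers at 10340, 7717 and 12150 CPM in caffeine, against 12540 and 7199 CPM in vehicle. Markers of foregut and hepatic endoderm summed to 45.0, 28.9 and 8.53 CPM in caffeine, against 10.6 and 136 CPM in vehicle, so that vehicle replicate 2 stood apart. Markers of cushion mesenchyme summed to 494, 439 and 312 CPM in caffeine, against 300.1 and 318 CPM in vehicle. Their mean log2 CPM was 5.51, 5.43 and 5.34 in caffeine, against 5.26 and 5.15 in vehicle, but each of the 5 markers alone overlapped between the groups. The mean log2 CPM of the cardiomyocyte markers was lower in every caffeine library, at 10.93, 11.01 and 11.05, against 11.29 and 11.2 in vehicle. Of these, Ttn, Myl4, Myl7, Myh6 and Myh7 were lower in every caffeine library than in both vehicle libraries, Myh6 and Myl7 by little. The others, Tnnt2, Tnni1, Actc1 and Nkx2-5, overlapped. The part of cell composition in the values below was not tested.

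None of the 47 tested genes passed an adjusted p of 0.05 in edgeR, and none passed in DESeq2 or limma-voom. Over all genes edgeR called 1 of 13829, or 0.00723%, and DESeq2 called 0.13%. Without adjustment, 4 of the 47 had a p under 0.05 in edgeR, against 5.2% of all genes. The count was also 4 in limma-voom, against 5.22% of all genes, and 4 in DESeq2, against 4.53%. In edgeR 3 were lower in caffeine (Cox7b, Uqcrb and Cycs), where 2.07% of all genes were lower at that p, and 1 was higher (Cox6b2), where 3.13% of all genes were higher. The same 3 genes had every caffeine library below both vehicle libraries, which held for 9.27% of all genes, and Cox6b2 had every caffeine library above both, which held for 11.2%. The fold change was negative in 37 of the 47, with a median of -0.11, against 47% of all genes and a median of 0.01. The summed level of the 48 genes was 16980, 16630 and 15500 CPM in the caffeine libraries and 19800 and 15910 CPM in the vehicle libraries, so that vehicle replicate 1 stood above the other 4 libraries and vehicle replicate 2 lay inside the caffeine range.

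Cox7b, a small subunit of complex IV, had the smallest p of the 47. It was at 154.06, 173.88 and 116.24 CPM in the caffeine libraries, against 239.70 and 198.86 CPM in the vehicle libraries. The groups did not overlap, and caffeine replicate 3 was the lowest. The means were 148 ± 29.3 CPM in caffeine (SD, n = 3) and 219 ± 28.9 CPM in vehicle (SD, n = 2), a log2 fold change of -0.57 with an SE of 0.17 (edgeR unadjusted p = 0.00579, adjusted p = 0.725). The value was -0.43 without vehicle replicate 1 and -0.72 without vehicle replicate 2. The gene lies on the plus strand of chrX:106015700-106022450 (mm10). The deposited spans of Gm5643 and Mir684-1 cover it on the same strand, and those of Mir1906-1 and Mir1906-2 on the other strand. Such a span need not be a single place: those of Gm5506 and Gm5801 cover both Uqcrh and Sdhb. Whether the genes themselves lie at Cox7b was not tested. A similar gene on the Ensembl annotation, Gm13771, averaged 607 counts. The part of these genes in the counts of Cox7b was not tested.

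**Figure D1:**
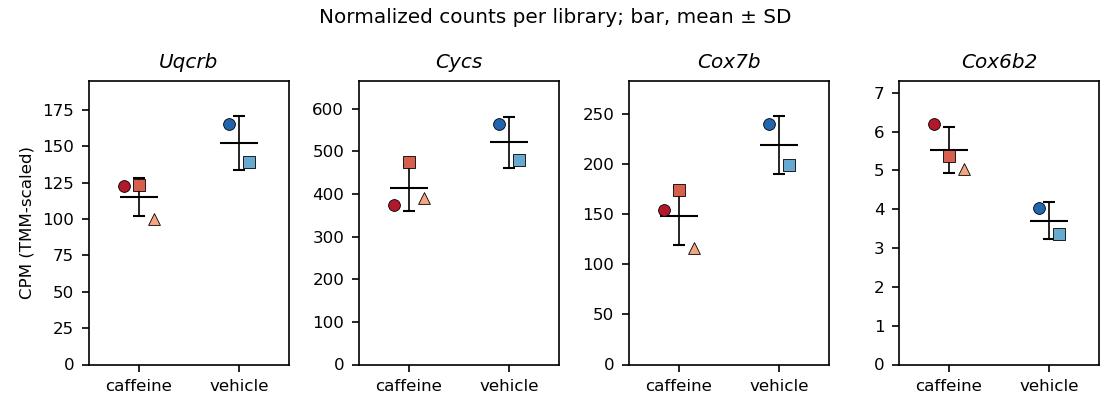
Normalized counts (CPM, TMM-scaled; y axes start at 0) of Uqcrb, Cycs, Cox7b and Cox6b2 in 3 caffeine libraries (left of each panel) and 2 vehicle libraries (right). Points are libraries and bars show the mean ± SD; the groups do not overlap in any panel, and none of the 4 genes passed the adjusted test.

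Complex II, which has the fewest genes of the complexes, showed the smallest spread of fold changes. Its 4 genes had values between -0.11 and -0.08, with a median of -0.10, and the groups overlapped in all 4. Sdha, the flavoprotein that oxidises succinate, was at 588, 576 and 525 CPM in the caffeine libraries and 636 and 575 CPM in the vehicle libraries. Sdhb, the iron-sulphur subunit, was at 261, 286 and 265 CPM in caffeine and 322 and 254 CPM in vehicle. The membrane anchors carry the ubiquinone site: Sdhc was at 367, 324 and 307 CPM in caffeine and 375 and 327 CPM in vehicle, and Sdhd at 286, 319 and 307 CPM in caffeine and 356 and 296 CPM in vehicle. In all 4 genes vehicle replicate 1 was the highest library. Without it the complex II median was 0.03, and without vehicle replicate 2 it was -0.23.

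In complex III the 9 genes ranged from -0.40 to 0.01, with a median of -0.09. The core subunits Uqcrc1 and Uqcrc2 hold the complex together. Uqcrc1 was at 471, 466 and 490 CPM in the caffeine libraries and 561 and 441 CPM in the vehicle libraries (-0.08, SE 0.13). Uqcrc2 was at 526, 536 and 478 CPM in caffeine and 610 and 495 CPM in vehicle (-0.11, SE 0.13). Uqcrfs1, the Rieske iron-sulphur protein, was at 305, 316 and 286 CPM in caffeine and 347 and 290 CPM in vehicle (-0.08, SE 0.13). Cyc1, the cytochrome that passes electrons out of the complex, was at 413, 460 and 479 CPM in caffeine and 539 and 426 CPM in vehicle (-0.10, SE 0.14). In all 4 of these genes the groups overlapped.

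The supernumerary subunit Uqcrb, which lies near the ubiquinone site of complex III, stood apart from the others. It was at 122.4, 123.4 and 99.9 CPM in the caffeine libraries, against 165.2 and 139.0 CPM in the vehicle libraries, with no overlap. The means were 115 ± 13.3 CPM in caffeine (SD, n = 3) and 152 ± 18.5 CPM in vehicle (SD, n = 2), a log2 fold change of -0.40 with an SE of 0.14 (edgeR unadjusted p = 0.0145, adjusted p = 0.865). It was -0.27 without vehicle replicate 1 and -0.55 without vehicle replicate 2. The gene lies on the minus strand of chr13:66900621-66905350. On the Ensembl annotation 3 similar genes together averaged 1459 counts, beside 2868 for Uqcrb. The part of these genes in the counts of Uqcrb was not tested. The other supernumerary subunits had -0.23 (Uqcrh, SE 0.17), -0.09 (Uqcr11, SE 0.14), 0.01 (Uqcr10, SE 0.14) and 0.01 (Uqcrq, SE 0.14), and their groups overlapped.

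Cycs encodes cytochrome c, the soluble carrier between complexes III and IV, which also starts apoptosis when it leaks into the cytosol. It was at 374.8, 475.4 and 391.6 CPM in the caffeine libraries, against 563.9 and 479.4 CPM in the vehicle libraries. The groups did not overlap, but caffeine replicate 2 and vehicle replicate 2 were close. The means were 414 ± 53.9 CPM in caffeine (SD, n = 3) and 522 ± 59.8 CPM in vehicle (SD, n = 2), a log2 fold change of -0.33 with an SE of 0.14 (edgeR unadjusted p = 0.0331, adjusted p = 0.949). It was -0.21 without vehicle replicate 1 and -0.47 without vehicle replicate 2. The deposited span is chr6:50562563-50566474 on the minus strand. On the Ensembl annotation, which lists similar genes beside it, Cycs held 34.7% as many counts and had a log2 fold change of -0.35; which of these sequences gave the reads was not tested.

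In complex IV, which had the most tested genes, the 16 values ranged from -0.57 (Cox7b) to 0.58 (Cox6b2), the widest range of any complex. Cox6b2 had few counts, from 74 to 149 per library. The median was -0.10, with 10 values negative and 6 positive. Among the ubiquitous subunits, Cox4i1, which binds near the catalytic core, was at 499, 447 and 392 CPM in the caffeine libraries and 550 and 420 CPM in the vehicle libraries (-0.12, SE 0.15). Cox6a1 was at 289, 288 and 315 CPM in caffeine and 377 and 304 CPM in vehicle (-0.20, SE 0.13). Cox8a was at 355, 349 and 374 CPM in caffeine and 413 and 315 CPM in vehicle (-0.02, SE 0.14). Vehicle replicate 1 was the highest library in all 3. Cox6b1 was at 271, 273 and 240.1 CPM in caffeine and 322 and 239 CPM in vehicle (-0.10, SE 0.14). Cox7a2, the ubiquitous form of subunit VIIa, was at 216, 213 and 178 CPM in caffeine and 267 and 201 CPM in vehicle (-0.21, SE 0.15). The groups of these 5 genes overlapped, as did those of Cox5a (-0.15), Cox5b (-0.13), Cox6c (0.07) and Cox7c (0.10). Cox7a2l, which joins complexes III and IV into a supercomplex, was at 231, 204 and 176 CPM in caffeine and 247 and 192 CPM in vehicle (-0.11, SE 0.15).

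The tissue forms of complex IV were lower per length than their ubiquitous partners. Per length of exon, the mean level over the 5 libraries ran from 0.189 CPM per kb for Cox7b2 to 682 CPM per kb for Cox4i1. Cox6b2, a form known from testis, was at 6.19, 5.37 and 5.04 CPM in the caffeine libraries, against 4.04 and 3.37 CPM in the vehicle libraries, with no overlap. The means were 5.53 ± 0.591 CPM in caffeine (SD, n = 3) and 3.70 ± 0.471 CPM in vehicle (SD, n = 2), a log2 fold change of 0.58 with an SE of 0.23 (edgeR unadjusted p = 0.0285, adjusted p = 0.941). Its value stayed between 0.43 and 0.71 without each vehicle library, and its deposited span is chr7:4751794-4753094 on the minus strand. Cox8b, the muscle form of subunit VIII, was at 8.72, 5.89 and 4.18 CPM in caffeine and 5.07 and 3.73 CPM in vehicle (0.51, SE 0.30), with caffeine replicate 3 between the vehicle libraries. Cox6a2, the muscle form of subunit VIa, was at 86.6, 71.8 and 94.4 CPM in caffeine and 91.4 and 71.1 CPM in vehicle (0.05, SE 0.16). Cox7a1, the muscle form of subunit VIIa, was at 33.9, 26.7 and 24.4 CPM in caffeine and 35.5 and 27.9 CPM in vehicle (-0.16, SE 0.17). Cox4i2, known from lung and for its response to low oxygen, was at 2.20, 1.504 and 2.63 CPM in caffeine and 1.65 and 1.91 CPM in vehicle (0.25, SE 0.33).

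The balance between forms was also compared as a share of the family's level per length within each library, which does not depend on the scaling between libraries. With 3 libraries against 2, an exact two-sided permutation test cannot give a p below 0.2, so none of these 9 shares could pass. Cox6a2 made up 19.5%, 16.8% and 19.5% of Cox6a1 plus Cox6a2 in the caffeine libraries and 16.4% and 15.9% in the vehicle libraries (exact permutation p = 0.2, adjusted 0.6). Cox6b2 made up 2.44%, 2.11% and 2.25% of Cox6b1 plus Cox6b2 in caffeine and 1.36% and 1.52% in vehicle (exact permutation p = 0.2, adjusted 0.6). In both pairs every caffeine library had the larger share. Cox7a1 made up 21.4%, 17.9% and 19.2% of Cox7a1 plus Cox7a2 in caffeine and 18.7% and 19.4% in vehicle, and Cox8b made up 3.58%, 2.49% and 1.66% of Cox8a plus Cox8b in caffeine and 1.82% and 1.76% in vehicle. In those pairs the groups overlapped, as they did for Cox4i2, which stayed below 1% of its pair, and for Cox7b2, below 0.3% of Cox7b plus Cox7b2.

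**Figure D2:**
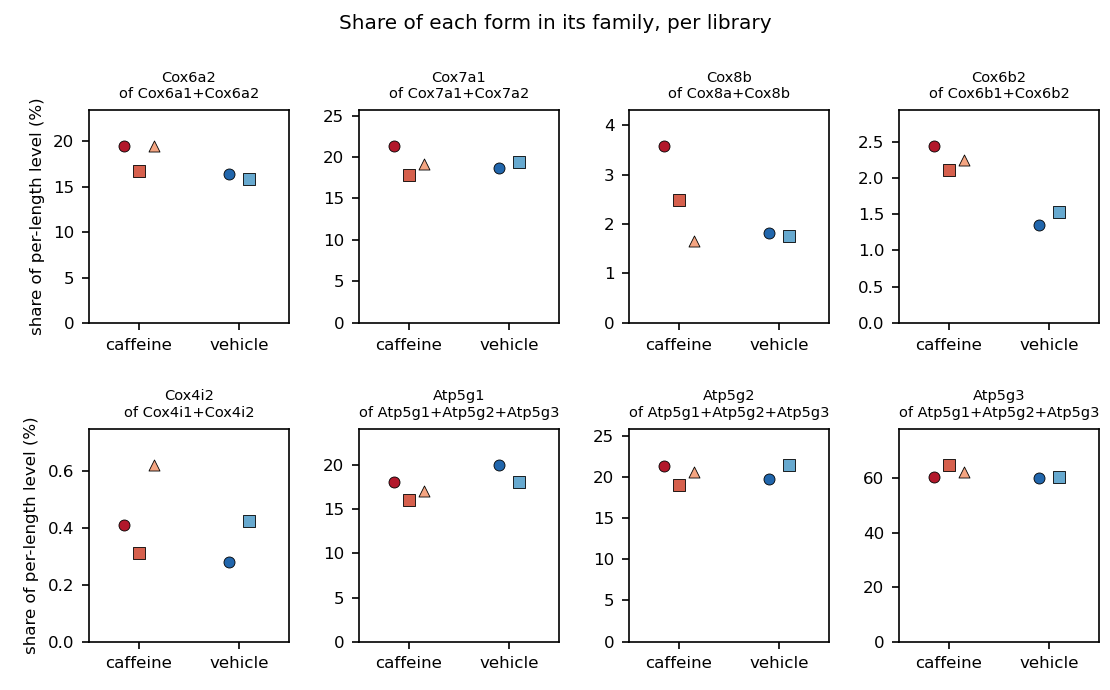
Share of each form in the level per length of its family (percent; y axes start at 0) in 3 caffeine libraries (left of each panel) and 2 vehicle libraries (right); points are libraries. The shares of Cox6a2, Cox6b2 and Atp5g3 are larger in every caffeine library than in both vehicle libraries, and the other 5 drawn overlap; Cox7b2, which also overlaps, is not drawn.

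Complex V held the most abundant of the 48 transcripts. The mean level per length over the 5 libraries was highest for Atp5b, at 1761 CPM per kb. Atp5b, the catalytic beta subunit, was at 3428, 3224 and 2992 CPM in the caffeine libraries and 3784 and 3118 CPM in the vehicle libraries (-0.10, SE 0.14). Atp5a1, the alpha subunit, was at 2727, 2648 and 2507 CPM in caffeine and 3134 and 2637 CPM in vehicle (-0.13, SE 0.13). In both genes vehicle replicate 1 was the highest and caffeine replicate 3 the lowest library. The fold change was negative in 14 of the 15 complex V genes, with a median of -0.14, and the exception was Atp5d (0.06, SE 0.15), a subunit of the rotor stalk. The other rotor subunits Atp5c1 and Atp5e had -0.21 and -0.14. The peripheral stalk genes had -0.12 (Atp5f1), -0.23 (Atp5h), -0.15 (Atp5j) and -0.20 (Atp5o), and the small membrane subunits -0.08 (Atp5j2), -0.06 (Atp5k) and -0.22 (Atp5l). The groups overlapped in all 15 genes. Atp5s and Atp5sl, which are no subunits, had -0.12 (SE 0.20) and 0.04 (SE 0.14).

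The genes Atp5g1, Atp5g2 and Atp5g3 encode the same mature c subunit, which forms the membrane ring of the ATP synthase, behind different import sequences. Atp5g1 was at 211, 191 and 191 CPM in the caffeine libraries and 301 and 202 CPM in the vehicle libraries, a log2 fold change of -0.35 with an SE of 0.16 (edgeR unadjusted p = 0.0502, adjusted p = 0.963). This value rested on 1 library: it was -0.03 without vehicle replicate 1 and -0.63 without vehicle replicate 2. Atp5g2 was at 233, 213 and 216 CPM in caffeine and 278 and 225 CPM in vehicle (-0.19, SE 0.13), and Atp5g3 at 696, 763 and 688 CPM in caffeine and 890 and 665 CPM in vehicle (-0.12, SE 0.14). The summed level per length of the 3 genes was 1693, 1729 and 1623 CPM per kb in caffeine and 2176 and 1621 CPM per kb in vehicle. Atp5g3 gave the largest share of it, 60.6%, 65.0% and 62.4% in caffeine and 60.2% and 60.4% in vehicle (exact permutation p = 0.2, adjusted 0.6). The share of Atp5g1 was 18.1%, 16.0% and 17.1% in caffeine and 20.0% and 18.1% in vehicle (exact permutation p = 0.4, adjusted 0.9). These shares changed with the annotation. With Ensembl counts Atp5g3 made up 87.4%, 93.7% and 94.8% in caffeine and 86.3% and 89.7% in vehicle, and the groups overlapped. Atp5g1 then made up 12.6%, 6.28% and 5.18% in caffeine and 13.7% and 10.3% in vehicle, and Atp5g2 a share that rounds to 0.

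The order of the libraries recurred across the 47 genes. Vehicle replicate 1 was the highest of the 5 libraries in 40 of the 47 genes (85.1%), against 21.8% of all tested genes. This held for 4 of 4 complex II genes, 9 of 9 complex III genes, Cycs and 15 of 15 complex V genes, but for 10 of 16 complex IV genes. The 7 genes with another library highest were Cox6a2, Cox8b, Cox4i2, Cox6b2, Cox6c and Cox7c of complex IV and Atp5sl. Vehicle replicate 2 lay inside the caffeine range in 28 genes, below all caffeine libraries in 16 and above them all in 3, and caffeine replicate 3 was the lowest library in 23. The mean log2 CPM of the 47 genes was 7.48, 7.41 and 7.30 in the caffeine libraries and 7.65 and 7.32 in the vehicle libraries.

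**Figure D3:**
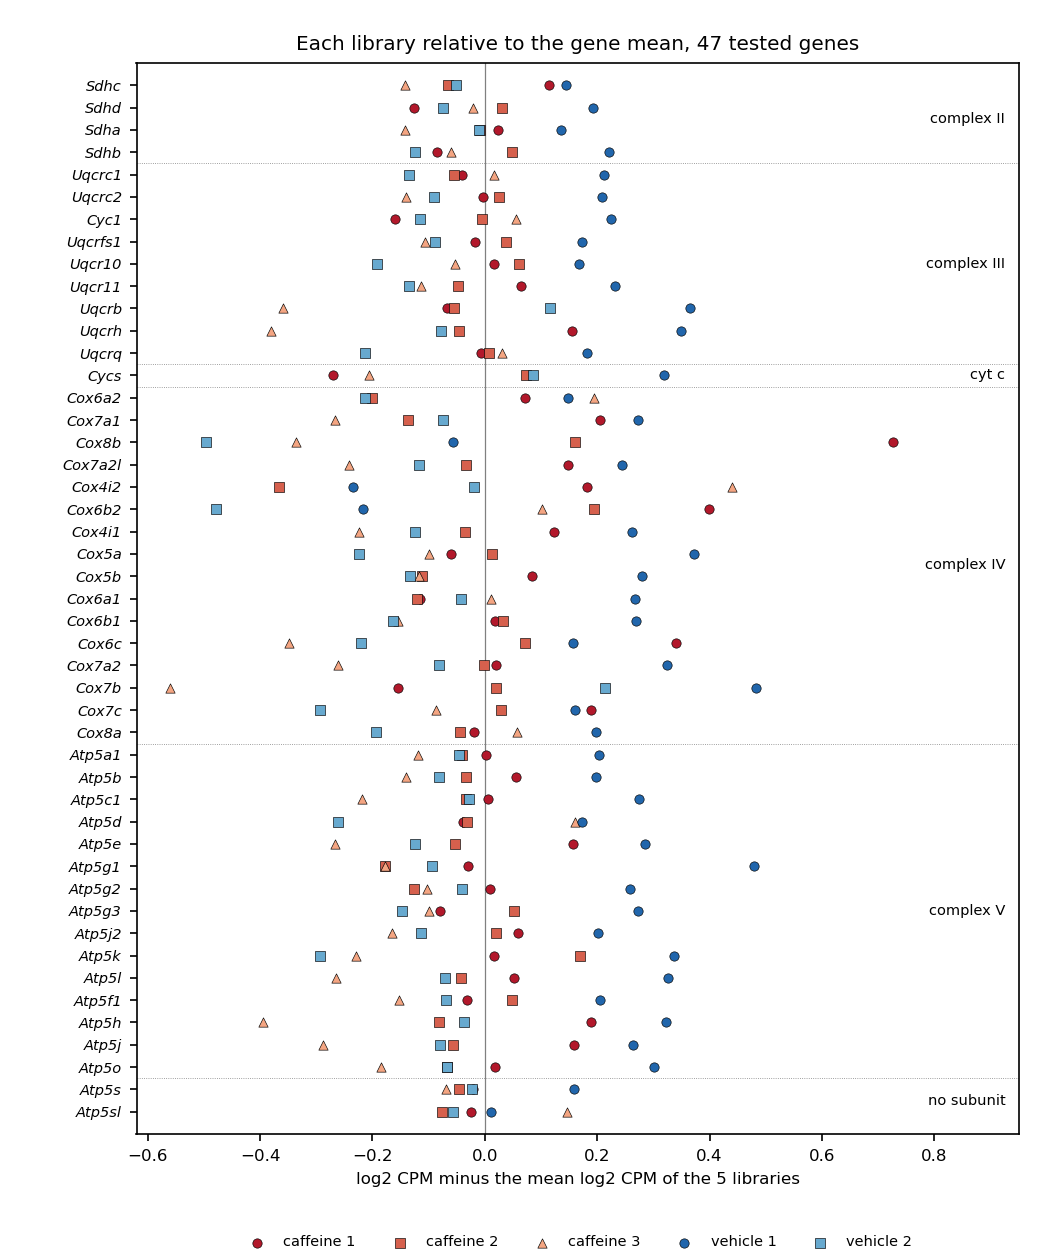
Level of each of the 47 tested genes in each library, as log2 CPM minus the mean log2 CPM of the 5 libraries (x axis), grouped by complex; circles, squares and triangles are replicates 1, 2 and 3, with caffeine in red shades and vehicle in blue shades. Vehicle replicate 1 lies farthest to the right in 40 genes, and vehicle replicate 2 lies inside the caffeine range in 28.

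The direction of the group therefore turned on that library. Without vehicle replicate 1, 13 of the 47 genes had a negative fold change and 34 a positive one, with a median of 0.07, where 48.1% of all genes were negative. Without vehicle replicate 2, 44 were negative, with a median of -0.28, where 49.4% of all genes were negative. In that fit 15 had an unadjusted p under 0.05 in edgeR, where 8.42% of all genes did, and none passed adjustment (lowest adjusted p = 0.176, for Atp5g1). Cox7b, Uqcrb and Cycs kept a negative value and Cox6b2 a positive one when either vehicle library was left out. This follows from their groups, which did not overlap, and adds nothing to it. Cox8b and Cox4i2, whose groups overlapped, also kept a positive value, and others, such as Sdha and Cox6a1, a negative one. Cox8b was at 0.19 without caffeine replicate 1, and Cox4i2 at 0.06 without caffeine replicate 3.

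**Figure D4:**
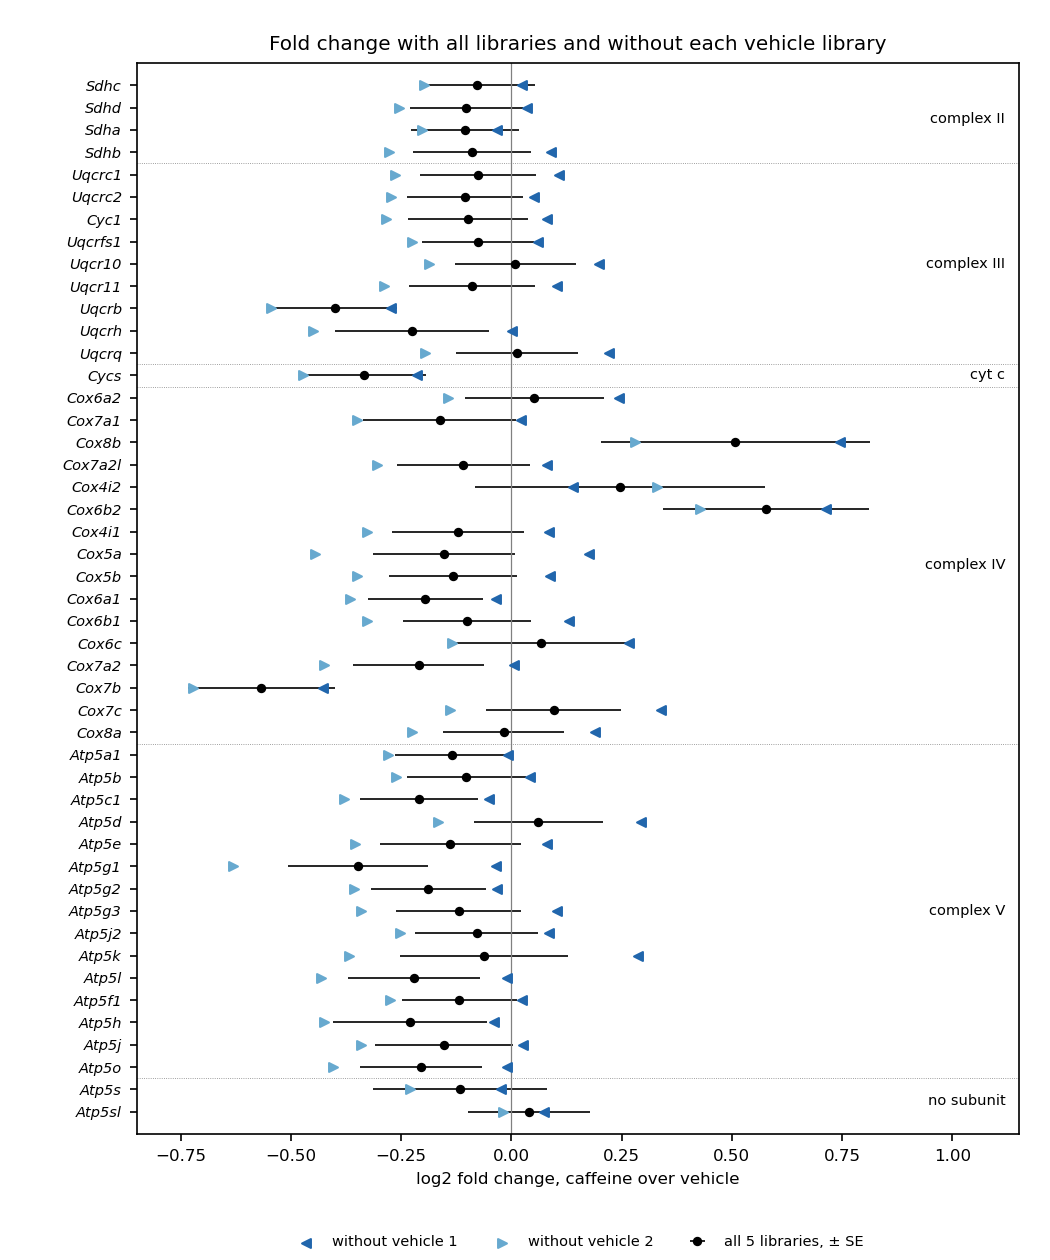
Log2 fold change of caffeine over vehicle (x axis) for the 47 tested genes, grouped by complex. Black points with bars show the value from all 5 libraries ± SE, dark blue triangles the value without vehicle replicate 1 and light blue triangles the value without vehicle replicate 2; leaving out vehicle replicate 1 puts 34 of the 47 genes above 0, and leaving out vehicle replicate 2 puts 44 below 0.

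Genes that work with these complexes were examined beside them. For complex I, the entry point for NADH, 37 genes were taken by name alone: Ndufa, Ndufb, Ndufc, Ndufs or Ndufv with a number. A gene on this list, such as Ndufa4, need not be a subunit of complex I. None passed the test (2 had an unadjusted p under 0.05 in edgeR, both lower, against 2.07% of all genes). Of the 37, 30 had a negative value, with a median of -0.15. The smallest p on the list belonged to Ndufs4, an accessory subunit. Ndufs4 was at 76.7, 71.7 and 59.8 CPM in the caffeine libraries and 111 and 78.8 CPM in the vehicle libraries (-0.45, SE 0.17, edgeR adjusted p = 0.912). None of the 36 tested assembly factors passed (1 higher and 2 lower at an unadjusted p under 0.05, against 3.13% and 2.07% of all genes), 23 were negative, and the median was -0.06. Sco2, a copper chaperone of complex IV, was at 5.03, 5.72 and 8.31 CPM in caffeine and 3.91 and 3.55 CPM in vehicle (0.76, SE 0.26; edgeR adjusted p = 0.851). Cox16 was at 10.2, 11.7 and 9.85 CPM in caffeine and 17.6 and 11.9 CPM in vehicle (-0.48, SE 0.20; edgeR adjusted p = 0.943). Without vehicle replicate 1 the medians were 0.03 for complex I and 0.03 for the assembly factors. The 7 carriers and porins had a median of -0.18 and the 14 citric acid cycle genes -0.11, and none of either passed, with or without adjustment. Without vehicle replicate 1 these medians were -0.06 and 0.00.

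The list of mitochondrial regulators held transcription factors and coactivators of nuclear genes, such as Nrf1 and Esrra, factors that act on mitochondrial DNA, such as Tfam and Polrmt, and the small mitochondrial proteins Chchd2 and Chchd10. Of these 14 genes none passed (1 was higher at an unadjusted p under 0.05, against 3.13% of all genes), 12 had a positive fold change, and the median was 0.10; it was 0.08 without vehicle replicate 1 and 0.14 without vehicle replicate 2. Esrra, a nuclear receptor that activates respiratory genes, was at 53.2, 53.3 and 60.4 CPM in the caffeine libraries and 47.04 and 42.4 CPM in the vehicle libraries (0.31, SE 0.14; edgeR adjusted p = 0.949). Nrf1 was at 35.6, 39.0 and 42.7 CPM in caffeine and 40.0 and 34.8 CPM in vehicle (0.06, SE 0.15), with overlap. Tfam, which packs and transcribes mitochondrial DNA, had -0.12 (SE 0.14).

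Many respiratory genes have binding motifs of NRF1, GABP or CREB close to the start, and the RefSeq promoters (GRCm38.p6) of 35 of the 48 genes were searched for them in the 250 bases upstream, on both strands. The NRF1 letters GCGCATGCG occurred in 5 of the 35 (14.3%), in Atp5g2, Atp5k, Atp5l, Cox6a1 and Cycs, against 1.45% of 32851 promoters. The GABP letters CCGGAAG occurred in 8 (22.9%), against 6.91% of all promoters, and the CREB letters TGACGTCA in 2 (5.71%), in Cycs and Uqcrfs1, against 1.55%. The YY1 letters AAGATGGC occurred in none, against 1.56%. The 32851 promoters were every entry at hand, more than the 18307 genes of the RefSeq table, whereas each of the 35 genes counted once. The percentages therefore come from unlike sets. A match is a run of letters and not a measured site. The 100 bases upstream of the start are shown for 3 genes with the smallest p values that had an entry and for Uqcrfs1, with matches in capitals. The Cycs window (chr6:50566570-50566669, minus strand) holds an NRF1 match, and its CREB match lies farther upstream. The Uqcrfs1 window (chr13:30545317-30545416, minus strand) holds a CREB match. The Cox7b window (chrX:106015600-106015699, plus strand) and the Cox6b2 window (chr7:4753095-4753194, minus strand) hold none of these letters.
Cycs: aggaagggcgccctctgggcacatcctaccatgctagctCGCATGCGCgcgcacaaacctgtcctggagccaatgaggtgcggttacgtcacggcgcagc
Uqcrfs1: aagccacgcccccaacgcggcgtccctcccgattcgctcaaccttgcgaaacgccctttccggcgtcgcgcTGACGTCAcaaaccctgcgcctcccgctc
Cox7b: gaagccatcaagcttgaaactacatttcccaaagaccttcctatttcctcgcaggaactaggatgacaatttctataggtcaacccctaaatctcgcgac
Cox6b2: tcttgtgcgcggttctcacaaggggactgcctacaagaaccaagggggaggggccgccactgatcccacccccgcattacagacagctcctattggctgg

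Many mouse respiratory genes have near-identical processed pseudogenes, copies of the spliced mRNA elsewhere in the genome. The authors also deposited counts on an Ensembl annotation, which lists many such copies. Of the 48 genes, 36 had a mean count there that differed by no more than 5% from their RefSeq count, but 7 had under 75%. Cox7c had 7.45% of its RefSeq count, Atp5l 0.768%, Cycs 34.7%, Atp5g1 40.3%, Cox5b 64.0% and Atp5h 71.6%, and Atp5g2 was listed at a count that rounds to 0 in all 5 libraries. The transcripts were searched for Ensembl genes of at least 90% identity over at least 80% of the length of either transcript of the pair. This found 35 for 18 of the 48 genes, 31 of them processed pseudogenes. Several of these similar genes held sizeable counts. Gm10175 averaged 5616 counts beside Atp5g2, and Gm10221 averaged 4782 beside Atp5l. Gm12338 averaged 5899 beside Cox7c, and Gm10053 averaged 6105 beside Cycs. Of these, Gm10221 and Gm12338 are listed as processed pseudogenes and Gm10175 as a transcribed processed pseudogene. Gm10053 is listed as protein-coding. All of them are called copies below for their sequence alone, whatever the listed type.

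Over the coding sequence these 4 copies were identical to the genes, with 100% of 438, 309, 189 and 315 aligned coding bases shared by Atp5g2, Atp5l, Cox7c and Cycs and their copies. The first 60 coding bases, the same letters in gene and copy and therefore all in lower case, are shown for 3 of the pairs. Atp5l lies on the minus strand of chr9:44912557-44920742 and Gm10221 on the minus strand of chr5:24581554-24581862. Cox7c lies on the minus strand of chr13:86044816-86046904 and Gm12338 on the minus strand of chr11:75599763-75599954. The Cycs copy Gm10053 lies on the plus strand of chr19:24875686-24876631. Genes, copies and sequences are from GENCODE M21 on GRCm38.
Atp5l and Gm10221: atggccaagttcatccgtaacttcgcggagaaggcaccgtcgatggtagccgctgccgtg
Cox7c and Gm12338: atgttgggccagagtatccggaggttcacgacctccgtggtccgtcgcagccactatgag
Cycs and Gm10053: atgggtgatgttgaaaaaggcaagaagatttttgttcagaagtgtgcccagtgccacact

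**Figure D5:**
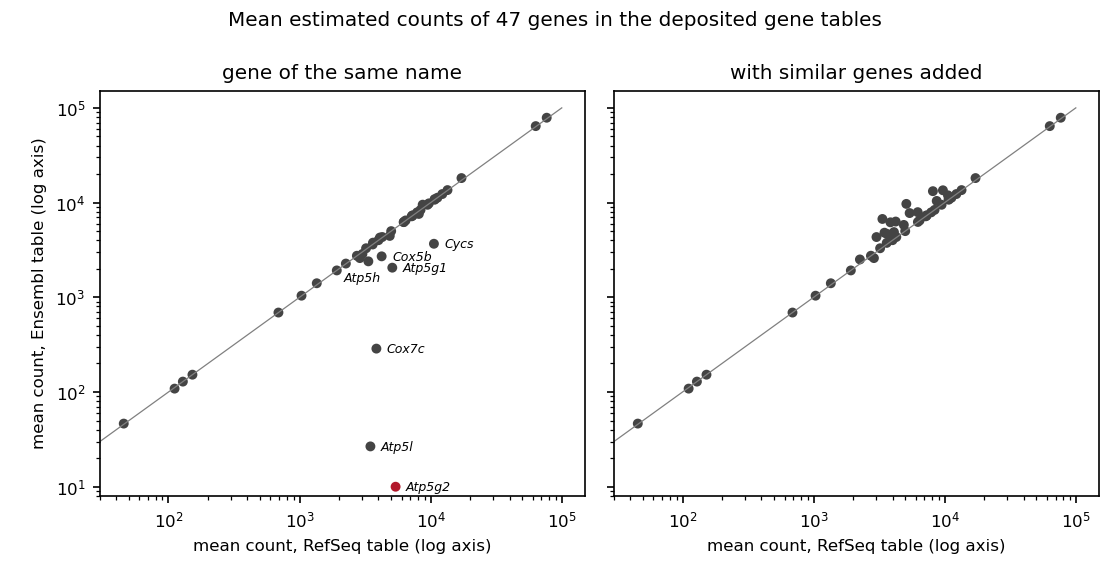
Mean estimated count over 5 libraries in the deposited RefSeq table (x axis, log) against the Ensembl table (y axis, log) for the 47 genes other than Cox7b2; the grey line marks equal counts. Left, the Ensembl gene of the same name, with the 7 genes under 75% named and Atp5g2 (red) drawn at the lower limit because its count rounds to 0. Right, the same with the counts of similar Ensembl genes added. There no gene is under 89.9% of its RefSeq count, and some lie far above it, such as Atp5h at 200.5%, Atp5g1 at 190.1% and Cox7c at 160.5%.

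With Ensembl counts none of 46 tested genes passed edgeR's test, where 0.013% of all genes did, and 4 had an unadjusted p under 0.05, where 6.19% of all genes did. The median was -0.10, with 36 negative values, where 46.3% of all genes were negative. Cox7b had -0.56, Uqcrb -0.39, Cycs -0.35 and Cox6b2 0.58, each within 0.02 of the RefSeq value. Atp5g1 had -0.79 in place of -0.35, from 2602, 1270 and 882 estimated counts in the caffeine libraries and 3708 and 1811 in the vehicle libraries (edgeR adjusted p = 0.957). Its similar genes held 6411, 7649 and 8293 counts in caffeine and 8848 and 6971 in vehicle, and which of these sequences gave the reads was not tested. The deposited spans of 8 of the 48 genes also overlap another listed gene, 5 of them only on the other strand, such as Atp5j with Gabpa over 451 bases and Atp5f1 with Wdr77 over 751 bases; whether the counting used strand is not given in the sources used here.

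At the level of RefSeq transcripts none of 18418 tested passed edgeR's test (0%), so none of the 48 genes had a transcript past it. DESeq2 called 194 transcripts (1.05%), none of them from the 48 genes. In edgeR, 4 transcripts of these genes had an unadjusted p under 0.05, where 7.36% of all transcripts did. Of the 48 genes, 4 had 2 listed transcripts, and Atp5g1 had sizeable counts for both. One of them was at 109, 81.5 and 98.5 CPM in the caffeine libraries and 171 and 118 CPM in the vehicle libraries (-0.58, SE 0.19; edgeR unadjusted p = 0.0151, adjusted p = 0.528), with no overlap. The other was at 102, 109 and 92.5 CPM in caffeine and 130 and 83.1 CPM in vehicle (-0.07, SE 0.19). The first made up 51.6%, 42.9% and 51.6% of the gene's counts in caffeine and 56.8% and 58.8% in vehicle (exact permutation p = 0.2, the smallest this design allows). It was picked for description after its values were seen.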

How the data were processed

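Pooled embryonic ventricles gave total RNA for TruSeq libraries, per the labels' protocols. The authors deposited estimated counts per gene and per transcript on RefSeq and Ensembl annotations, per the file headers, and, per the submitters' processing notes, with TopHat, Partek and the builds mm10 and GRCm38. These estimated counts are as deposited, with no scaling between libraries. The Ensembl transcript table was not used here.

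All estimated counts were first rounded. Genes were filtered with filterByExpr, scaled by TMM and tested with edgeR 4.0.16 (quasi-likelihood, robust) in R 4.3.3. On simulated counts with 200 changed genes, the test recovered 74% of 2-fold changes but only 15.5% of 1.5-fold changes. A gene that did not pass may therefore still differ by such an amount. Alternatives used DESeq2 1.42.0, limma 3.58.1, other scalings and filters, the Ensembl gene table, a replicate block and each library left out. Deposited stop coordinates mostly ran 1 base past the annotated end (24 of 30 genes with the same start), so ends printed are the stop minus 1. Exon lengths came from GENCODE M21, cut to the deposited span. Similar genes were found with BLAST 2.17.0, after the counts had been seen.

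The genes, the linked lists and the markers were chosen with earlier results of these data known. Values per library are given for genes with an unadjusted p under 0.05, for paralog families, for Cycs and Cyc1, for complex II, for Uqcrc1, Uqcrc2 and Uqcrfs1 and for the catalytic subunits of the ATP synthase. Cox8c was not analysed here. The 5 other genes whose log2 CPM followed the mean of the 47 genes most closely over the 5 libraries were also named. The number of libraries limits the precision, and every tested gene of the 47 had at least 35 counts in every library. All p-values rest on 3 pools against 2.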

Additional observations from a re-analysis of the deposited data

How the results depend on the processing

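In every alternative run, none of the 48 genes passed an adjusted p of 0.05, and none of their transcripts did. The count over all genes was 1 in the fit reported, 6 with no filter on low counts, 18 with DESeq2 and 2 with the Ensembl table, and from 0 to 18 with each library left out. The median log2 fold change of the respiratory genes, -0.11, ranged from -0.28 to 0.073 with each library left out, and was -0.045 with no scaling, where the median of all genes was 0.073. Leaving out vehicle replicate 1 turned the sign of 15 of the 27 genes described by library. With each library left out, the log2 fold change ranged from -0.26 to 0.042 for Atp5b, -0.34 to 0.10 for Atp5g3, -0.33 to 0.085 for Cox4i1, -0.14 to 0.24 for Cox6a2, -0.33 to 0.13 for Cox6b1, -0.35 to 0.021 for Cox7a1, -0.43 to 0.0054 for Cox7a2 and -0.30 to 0.082 for Cox7a2l. It ranged from -0.23 to 0.19 for Cox8a, -0.28 to 0.080 for Cyc1, -0.28 to 0.091 for Sdhb, -0.20 to 0.023 for Sdhc, -0.26 to 0.036 for Sdhd, -0.26 to 0.11 for Uqcrc1, -0.27 to 0.051 for Uqcrc2 and -0.23 to 0.060 for Uqcrfs1. Cox8a had 0.045 with no scaling and Cox6a2 had -0.032 under the replicate block. Where a fit left 1 vehicle library, that library was assumed to vary like the caffeine ones. The cause of these shifts was not tested.

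Fitting the replicate number as a block gave 52 called genes over all, none of them respiratory, and a median of -0.056 for the respiratory genes. The labels tie no batch to the number. The deviations of same-numbered libraries correlated at -0.02 and 0.13, but with 2 vehicle libraries these deviations mirror each other, so whether the numbers mark a shared batch cannot be told. With Ensembl counts the difference in the Atp5g1 share of its family was -4.00 percentage points, against -2.02 with RefSeq counts. Cox4i2 was at 0.047 under the replicate block.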

Other observations

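The genes outside the respiratory complexes whose level followed the mean of the 47 genes most closely over the 5 libraries were Cnp, Hsd17b10, Yipf1, Tbxas1 and AI462493, with Pearson's r from 0.994 for AI462493 to 0.9995 for Cnp. With 5 libraries among 13829 genes this is a description and no test was made. Cnp, known for myelin but also found in mitochondria, was at 20.4, 19.1 and 17.5 CPM in the caffeine libraries and 23.7 and 17.8 CPM in the vehicle libraries. Hsd17b10, a mitochondrial dehydrogenase that is also part of the mitochondrial RNase P, was at 73.3, 70.4 and 66.0 CPM in caffeine and 83.8 and 67.1 CPM in vehicle. Yipf1 was at 23.8, 22.9 and 21.2 CPM in caffeine and 27.7 and 21.6 CPM in vehicle. AI462493 was at 16.5, 15.8 and 15.1 CPM in caffeine and 18.4 and 15.3 CPM in vehicle. Tbxas1 was barely detected, at 0.664, 0.559 and 0.363 CPM in caffeine and 1.40 and 0.410 CPM in vehicle. All 5 genes shared the library order of the respiratory genes, which follows from how they were picked.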
